A study of Homo sapiens with 9 samples.

Results

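The 4 libraries described here come from PC9 cells kept under osimertinib for 28 days: those labelled S clone 1 and G2 clone 1, treated as 1 group of cycling cells, were set against those labelled G1 clone 1 and G1 clone 7, 2 libraries against 2, out of 9 in the series. The comparison was defined by library label alone, and each of 20435 genes was represented by the coding span with the highest mean level over the 9 libraries. PC9 is a human lung adenocarcinoma (NSCLC) line driven by a mutant epidermal growth factor receptor (EGFR), and osimertinib inhibits that receptor. The cells stably carried the FUCCI4 reporter, with fluorescent CDT1 and geminin (GMNN) fragments, were exposed without a break to 500 nM osimertinib, and were fixed with glyoxal, permeabilised and sorted by DNA content and reporter colour before poly(A) RNA-seq. The remaining 5 libraries are untreated day 0 cells of the same reporter line, 2 of G1 (clones 1 and 7), 2 of S (clones 1 and 7) and 1 of G2 (clone 1). Both cycling libraries at day 28 are of clone 1, so clone 7 enters on the G1 side only, and the labels do not say whether the fractions of a clone were sorted from 1 culture. The p-values and SE rest only on the spread between clone 1 and clone 7 within day 0 G1, day 0 S and day 28 G1, which may be technical. The day 28 S and G2 libraries, 1 each, add no spread of their own.

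A cell that leaves mitosis enters G1, where cyclin D and cyclin E kinases inactivate the retinoblastoma proteins and free E2F factors to switch on genes for DNA replication. Genes for mitosis are switched on later, from S phase to G2, through complexes that bind CCAAT boxes and cell cycle homology regions (CHR) in their promoters, and the same CHR elements hold these genes silent in resting cells. Most PC9 cells stop dividing under an EGFR inhibitor, and a small fraction of drug-tolerant cells can go on or return to cycling.

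Recovered read totals, with M standing for 1e6 reads, were 43.1 M for the day 28 G2 library, 40.9 M for S, 33.5 M for G1 clone 7 and 30.5 M for G1 clone 1, within 8.83 M to 108.7 M over the series. Levels are given as log2 of the deposited linear value plus 1, and they count reads over the coding span with its introns, so they mix spliced and unspliced RNA. Reads over 414 olfactory receptor genes, a gauge of background, were denser in the cycling libraries, at 0.0120 (S) and 0.0258 (G2) reads per kb per M against 0.00787 and 0.00769 in G1. The G2 library held no read in 24 of the 12403 tested genes, against 0 to 3 in the other 3. Mitochondrial transcripts took 8.61% of reads in G1 clone 7 and 15.8% to 21.6% in the 3 libraries of clone 1. The simple epithelial keratins KRT7, KRT8, KRT18 and KRT19, expected in a lung adenocarcinoma line, lay at 17.65 to 19.30 in all 4 libraries. Over the 9 libraries the 12 leukocyte markers summed to 8.84 to 23.2 CPM (reads per 1e6) and the 12 fibroblast and endothelial markers to 21.7 to 54.7, with MS4A1 at 0 reads in 3 of the 4 day 28 libraries.

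In cycling cells under osimertinib the genes of mitosis stood far above their level in G1 cells, 25 of 25 spindle genes among them. The genes below their G1 level included KRT13, TSPAN1 and PSCA. In all, 588 of the 12403 tested genes differed between S and G2 together and G1 (4.74%, limma, Benjamini-Hochberg adjusted p under 0.05), 359 higher (2.89%) and 229 lower (1.85%), each by at least 2-fold. In 580 of them the S and G2 values both lay on the same side of both G1 values, which was so in 56.3% of all tested genes. The median difference over all tested genes was -0.00. Of the 359 higher genes, 127 were among the 283 tested members of the 12 cell cycle lists and 232 were not. With 1 library left out, the count was lowest without the G1 library of clone 7, when 46 genes passed, all of them among the 588. It was 348 without the G1 library of clone 1, 361 without S, 124 without G2, and 359 and 357 without the day 0 S libraries of clones 1 and 7. In these fits with 1 library left out all 588 genes kept their sign, except without G2, where 581 did. That outcome was fixed in advance for the 580 genes above, and for every gene where the library left out was of day 0. A fit of clone 1 alone, day 0 and day 28, treated S and G2 as 1 class, with 1 G1 library per day. Its only spread was the gap between S and G2 on each day, so its calls are a different kind of test. All 588 genes kept their sign in it, which was again fixed in advance for the 580. With an olfactory density subtracted from each gene in proportion to its span, 215 genes passed, 117 of them among the 588. Unlike the densities given above, that density counted 0.9 reads for each olfactory gene without a read. It therefore exceeded what the reads alone would give. It was 10.95 scaled reads per kb in day 0 G1 of clone 7, the shallowest library, and 0.891 in day 0 G1 of clone 1. Results with this density subtracted do not test the background by reads alone.

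Among genes called in 1 direction over all 4 pairs and with a mean log2 CPM of at least 3, PIF1, KIF20A and DEPDC1 rose most. Their promoters are shown because mitotic genes are known for the elements in capitals, and that of RRM2 because it stands for the replication genes. Each run is the 250 bases before a RefSeq start of the gene (GRCh38.p14), which for RRM2 is 1 of 2. Capitals mark CCAAT (or ATTGG on the other strand) and the CHR core TTTGAA (or TTCAAA).
PIF1, chr15:64825648-64825897, minus strand: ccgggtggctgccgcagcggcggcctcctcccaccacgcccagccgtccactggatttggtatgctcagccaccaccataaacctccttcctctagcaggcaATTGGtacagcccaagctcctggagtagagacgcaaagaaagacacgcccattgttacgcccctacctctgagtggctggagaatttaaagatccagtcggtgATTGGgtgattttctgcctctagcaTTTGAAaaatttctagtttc
KIF20A, chr5:138178862-138179111, plus strand: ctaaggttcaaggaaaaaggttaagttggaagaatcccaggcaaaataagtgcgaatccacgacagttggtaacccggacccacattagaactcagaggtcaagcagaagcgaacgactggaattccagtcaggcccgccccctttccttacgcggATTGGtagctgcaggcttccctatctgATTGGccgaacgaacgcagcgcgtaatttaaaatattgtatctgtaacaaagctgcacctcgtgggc
DEPDC1, chr1:68497083-68497332, minus strand: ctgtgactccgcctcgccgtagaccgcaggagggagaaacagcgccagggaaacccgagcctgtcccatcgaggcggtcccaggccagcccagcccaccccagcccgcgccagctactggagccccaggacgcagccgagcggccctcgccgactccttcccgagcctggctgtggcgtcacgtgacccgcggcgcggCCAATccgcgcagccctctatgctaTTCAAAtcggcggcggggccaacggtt
RRM2, chr2:10122489-10122738, plus strand: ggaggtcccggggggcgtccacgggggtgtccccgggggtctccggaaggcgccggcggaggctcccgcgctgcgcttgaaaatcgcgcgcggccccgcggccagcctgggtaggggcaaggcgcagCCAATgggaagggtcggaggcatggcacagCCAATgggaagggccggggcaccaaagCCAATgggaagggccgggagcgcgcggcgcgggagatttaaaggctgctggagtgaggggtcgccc

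In the PIF1 promoter the CHR core began at -20 and CCAAT boxes at -148 and -45, counted back from the start. DEPDC1 held both as well, with CCAAT at -52 and the CHR core at -27. KIF20A held CCAAT boxes at -94 and -67 and no TTTGAA in these letters. RRM2 held CCAAT at -123, -93 and -66, and neither TTTGAA nor any of the E2F motifs searched (TTTGGCGC, TTTCCCGC and TTTCGCGC, both strands) in this window. Over windows of 300 bases (250 before to 50 after the start), with motifs allowed to overlap, 294 of the 359 higher genes matched by symbol and gave 404 windows. TTTGAA stood in 29.7% of these, against 13.1% of 290 windows of the lower genes, 10.4% of 14544 windows of tested genes and 15.2% of all 35116 windows. CCAAT stood in 54.2%, 27.2%, 34.8% and 34.6% of the same sets, and an E2F motif in 8.17%, 3.1%, 4.21% and 2.74%. Among the lists, windows of spindle motor genes held TTTGAA in 63.0% of 27, and windows of replication fork genes held it in 2.86% of 35 but an E2F motif in 37.1%. A match is a string of letters and shows no binding.

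PIF1, a DNA helicase of telomeres and replication forks, gave 15 and 3 reads in the G1 libraries (clones 1 and 7), 1256 in S and 19868 in G2. Its levels were 5.39 and 3.07 in G1, 11.44 in S and 15.32 in G2, so the groups lay far apart. The difference was 9.15 ± 1.14 (SE of the 9-library fit, log2, n = 2 against 2, limma adjusted p = 0.00818). This SE leaves out the gap between S and G2. Against the G1 library of clone 1 the S library held 67.6 times as much PIF1 (95% counting interval 40.8 to 121.1). KIF20A, the mitotic kinesin of the cleavage furrow, stood at 8.68 and 6.18 in G1, 13.07 in S and 15.48 in G2, a difference of 6.85 ± 0.88, or 115-fold (adjusted p = 0.00873). DEPDC1, a mitotic factor, rose by 6.77 ± 0.49 (109-fold, adjusted p = 0.00217). FAM83D, which anchors casein kinase 1 at the spindle, rose by 6.36 ± 0.44 (82.2-fold). In all of these the order was G1 clone 7, G1 clone 1, S, G2.

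MKI67, whose protein Ki-67 coats mitotic chromosomes and marks proliferating cells, had levels of 9.45 and 7.54 in G1, 13.75 in S and 14.76 in G2, and rose 54.1-fold (5.76 ± 0.77, limma adjusted p = 0.0101). By the same rule, the next largest rises after MKI67 were those of TOP2A (5.57 ± 0.71), which untangles DNA, the spindle proteins DLGAP5 (5.34), ASPM (5.30), TROAP (5.26), HMMR (5.22) and NUSAP1 (5.02), the chromosomal passenger kinase AURKB (5.09), ARHGAP11A (5.09), the kinetochore protein CENPF (5.04) and the abscission protein CEP55 (5.02). In the plot of leading genes the S and G2 points of each of these 15 lie to the right of both G1 points, as their selection required. That selection also fixed their direction in the fits with 1 library left out. All 15 kept their direction in each alternative in which they were fitted, but 6 passed without the G1 library of clone 7, 7 without the G2 library and 3 with the olfactory density subtracted.

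**Figure D1:**
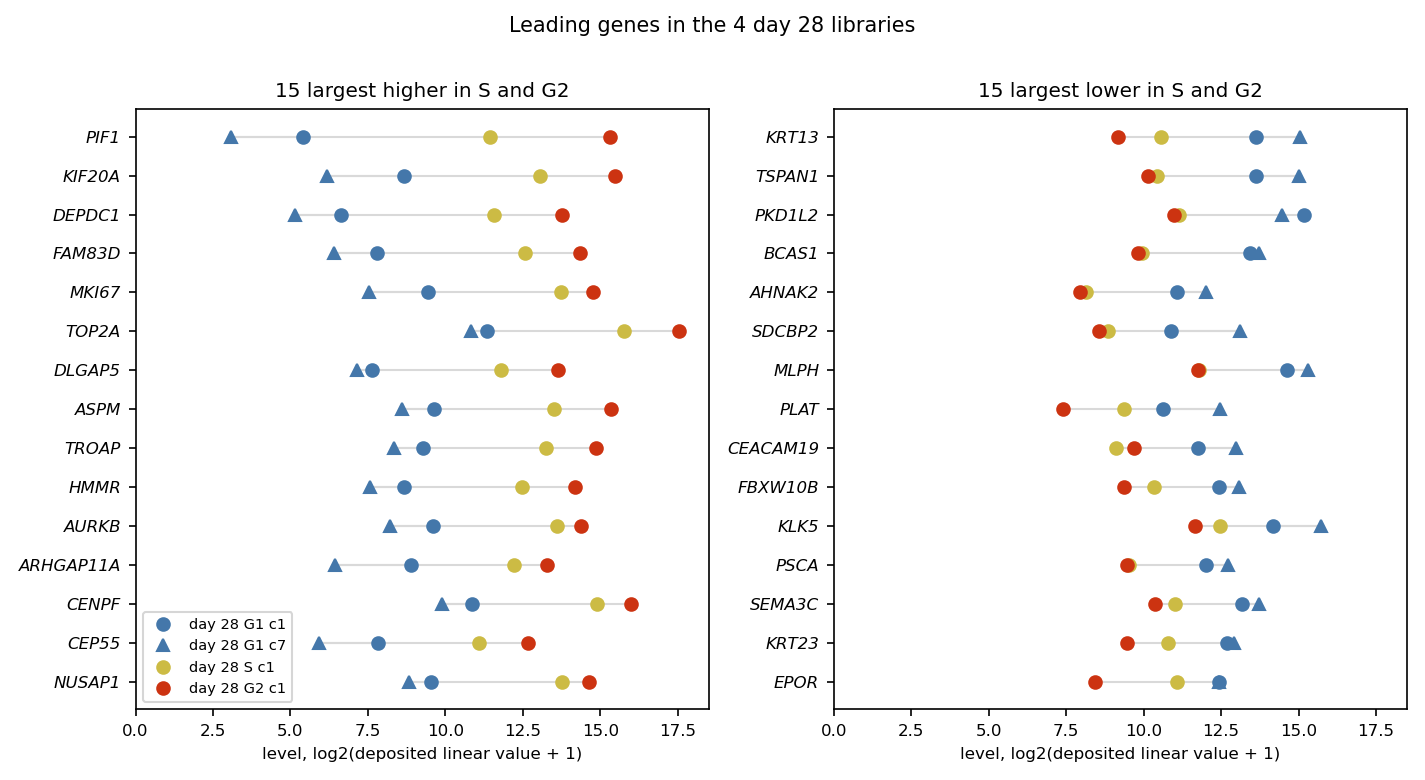
Levels, log2(deposited linear value + 1), in the 4 day 28 libraries, of the 15 genes with the largest rise (left) and the 15 with the largest fall (right) among those called in 1 direction over all 4 pairs with a mean log2 CPM of at least 3. Blue marks G1 (circle clone 1, triangle clone 7), yellow S and red G2, 1 point per library. The S and G2 points never cross the G1 points, as the selection requires.

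Mitotic entry genes were the most uniformly raised next to the spindle genes: 19 of 23 tested members passed, none of them lower, and the median difference was 3.84 against -0.00 over all tested genes. CCNA2 (cyclin A2) stood at 9.36 and 9.14 in G1, 12.63 in S and 14.00 in G2, a 16.7-fold rise (4.06 ± 0.26, limma adjusted p = 0.00217). CCNB1 (cyclin B1) gave 1122 and 830 reads in G1, 8591 in S and 33171 in G2, a 14.4-fold rise (3.85 ± 0.45, adjusted p = 0.00654). CDK1, their kinase partner, rose by 4.92 ± 0.55 and NEK2, a centrosome kinase, by 4.87 ± 0.46. PLK1, the polo-like kinase of mitosis, reached 14.52 in G2 but 11.70 in S, against 9.66 and 9.73 in G1 (3.41 ± 0.71, adjusted p = 0.0399). Of the 23, 6 passed without the G1 library of clone 7.

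All 25 tested genes for spindle motors and microtubule regulators rose, with a median of 4.16 and a range of 1.91 to 6.85. For kinetochore and checkpoint proteins 30 of 41 rose, none fell and the median was 3.07. CENPA, the histone H3 variant that defines the centromere, lay under the mean log2 CPM of 3 (2.83). It was nearly silent in G1, with 9 and 13 reads, and gave 261 in S and 1489 in G2 (5.52 ± 0.39, limma adjusted p = 0.00217). NDC80, which couples kinetochores to microtubules, rose by 4.66 ± 0.51, CENPE, a kinetochore kinesin, by 4.54 ± 0.55, and CDCA8, a chromosomal passenger subunit, by 4.87 ± 0.68. Of the 18 condensin, cohesin and topoisomerase genes 12 rose (median 2.37), among them PTTG1 (securin, 4.88 ± 0.51), ESPL1 (separase, 4.85 ± 0.53), NCAPG (condensin, 4.97 ± 0.60) and CDCA5 (sororin, 3.29 ± 0.33). Of the 24 mitotic exit and cytokinesis genes 14 rose (median 2.98), with the anaphase-promoting complex partners UBE2C (4.76 ± 0.53) and CDC20 (4.49 ± 0.52). The calls left without the G1 library of clone 7 were 9 of the 25 spindle genes, 8 of the 41 kinetochore genes, 2 of the 18 and 7 of the 24. In clone 1 alone the medians of these lists were 3.74, 2.44, 2.19 and 2.76.

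**Figure D2:**
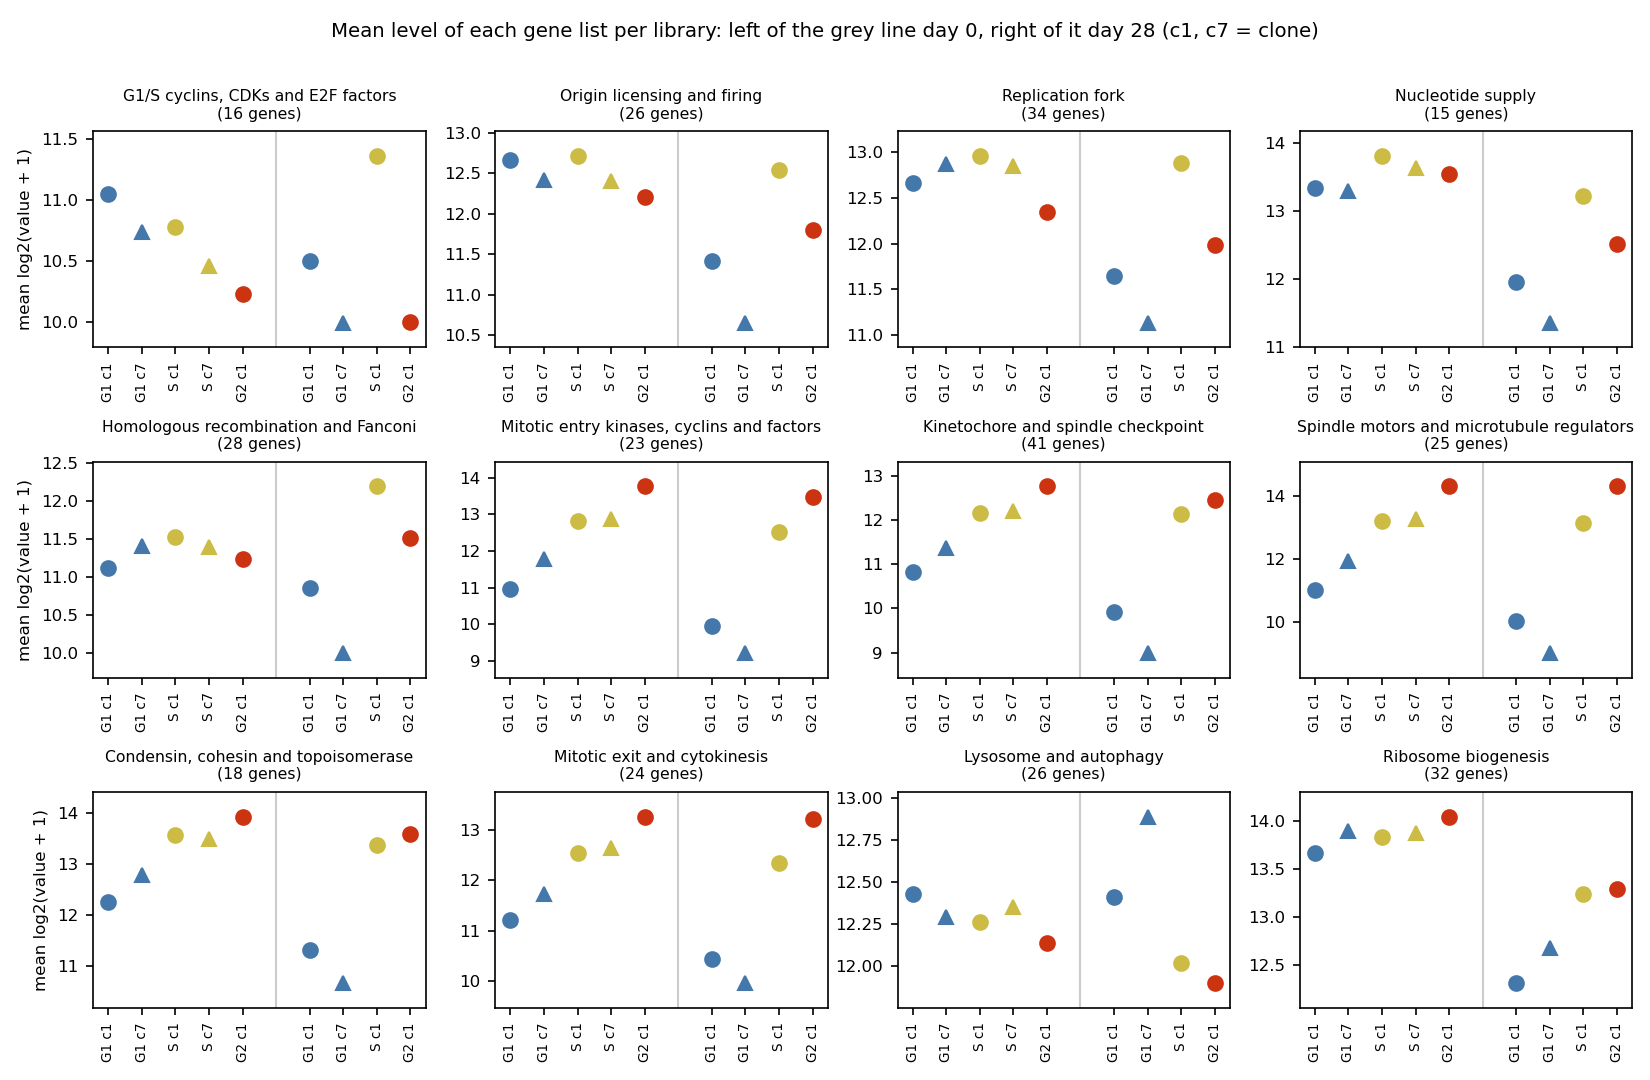
Mean level, log2(value + 1), over the tested members of 12 gene lists, 1 point per library, for day 0 (left of the grey line) and day 28 (right), with blue for G1, yellow for S, red for G2, circles for clone 1 and triangles for clone 7. The mitosis lists climb from G1 to S to G2 on both days. The origin and fork lists are nearly level between G1 and S at day 0, while nucleotide supply is somewhat higher in S (13.81 and 13.64 against 13.34 and 13.30). All 3 of these lists set G1 below S at day 28.

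Fewer of the genes for making DNA passed. Nucleotide supply genes rose in 5 of 15 and fell in 0 (median 1.06), origin licensing and firing genes rose in 7 of 26 (median 1.11), and replication fork genes in 6 of 34 (median 1.07). Without the G1 library of clone 7 these medians were 0.87, 0.75 and 0.82, and without that of clone 1 they were 1.44, 1.355 and 1.25. RRM2, the regulated subunit of ribonucleotide reductase, had levels of 12.28 and 10.90 in G1, 15.20 in S and 13.66 in G2, a 7.16-fold rise (2.84 ± 0.43, limma adjusted p = 0.0163). TK1 (thymidine kinase) rose by 2.26 ± 0.32, DTYMK (thymidylate kinase) by 2.26 ± 0.29, RRM1 by 1.34 ± 0.28 and UMPS by 1.24 ± 0.25. Among the licensing and firing genes TICRR (treslin) rose by 3.67 ± 0.57, DBF4, the activator of CDC7, by 3.20 ± 0.36, and ORC6 of the origin recognition complex by 2.31 ± 0.33. At the fork, DSCC1, a clamp loader subunit, rose by 1.97 ± 0.40, the primase PRIM1 by 1.89 ± 0.32, the histone chaperone ASF1B by 1.64 ± 0.36 and the flap endonuclease FEN1 by 1.52 ± 0.28. Without the G1 library of clone 7, 0 members of these 3 lists passed. Without the S library 1, 3 and 0 did, with medians of 0.62, 0.39 and 0.63. Without the G2 library 2, 3 and 2 did, with medians of 1.44, 1.64 and 1.51, and without either day 0 S library 3, 3 and 1.

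Homologous recombination and Fanconi genes rose in 8 of 28 and fell in none (median 1.44). RAD54L, a recombination motor, stood at 11.96 and 10.51 in G1, 14.22 in S and 13.16 in G2 (2.45 ± 0.45, limma adjusted p = 0.0296). The helicase BLM rose by 2.45 ± 0.44, RAD51AP1 by 2.38 ± 0.37 and the exonuclease EXO1 by 2.18 ± 0.35. The values of BRCA2 (2.40 ± 0.67, adjusted p = 0.0827) and POLQ (2.37 ± 0.54, adjusted p = 0.0524) were as large and missed the threshold. Without the G1 library of clone 7, and also without the S library, 0 of the 28 passed. Of the 31 histone genes and factors listed, 7 passed the filter on low values, and poly(A) selection is known to leave out most replication-dependent histone RNA. H2BC5, which can also give a polyadenylated transcript, fell from 10.76 and 10.49 in G1 to 7.77 in S and 8.78 in G2 (-2.35 ± 0.44, adjusted p = 0.0307).

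Of the 16 tested genes for G1/S cyclins, their kinases and E2F factors, 1 rose and 1 fell, beside 2.89% and 1.85% of all tested genes. E2F8, an atypical E2F repressor, rose from 9.61 and 8.50 to 11.38 in S and 10.98 in G2 (2.13 ± 0.42, limma adjusted p = 0.0352). The gene that fell, CCNE2 (cyclin E2), was higher in S than in G1 and nearly absent from G2. Its reads numbered 419 and 180 in G1, 908 in S and 1 in G2, and the S library held 971.8 times the G2 amount (95% counting interval 174.0 to 38430). Its call (-3.19 ± 0.67, adjusted p = 0.0427) rests on G2: without that library the difference was 1.49 (adjusted p = 0.357). E2F1 stood at 10.84 and 9.68 in G1, 11.63 in S and 8.25 in G2, PCNA, the sliding clamp, at 13.27 and 12.40, 15.03 and 12.63, CDC6, the helicase loader, at 11.25 and 10.76, 12.83 and 11.25, and the helicase subunit MCM5 at 12.77 and 12.00, 13.52 and 11.71. These 4 values peak in S, and in G2 lie within, at the upper edge of or below the G1 range, and none passed with S and G2 as 1 group (adjusted p of 0.0844 to 0.685). CCNE1 (-0.42 ± 0.35) and CCND1 (0.59 ± 0.44) did not pass either.

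**Figure D3:**
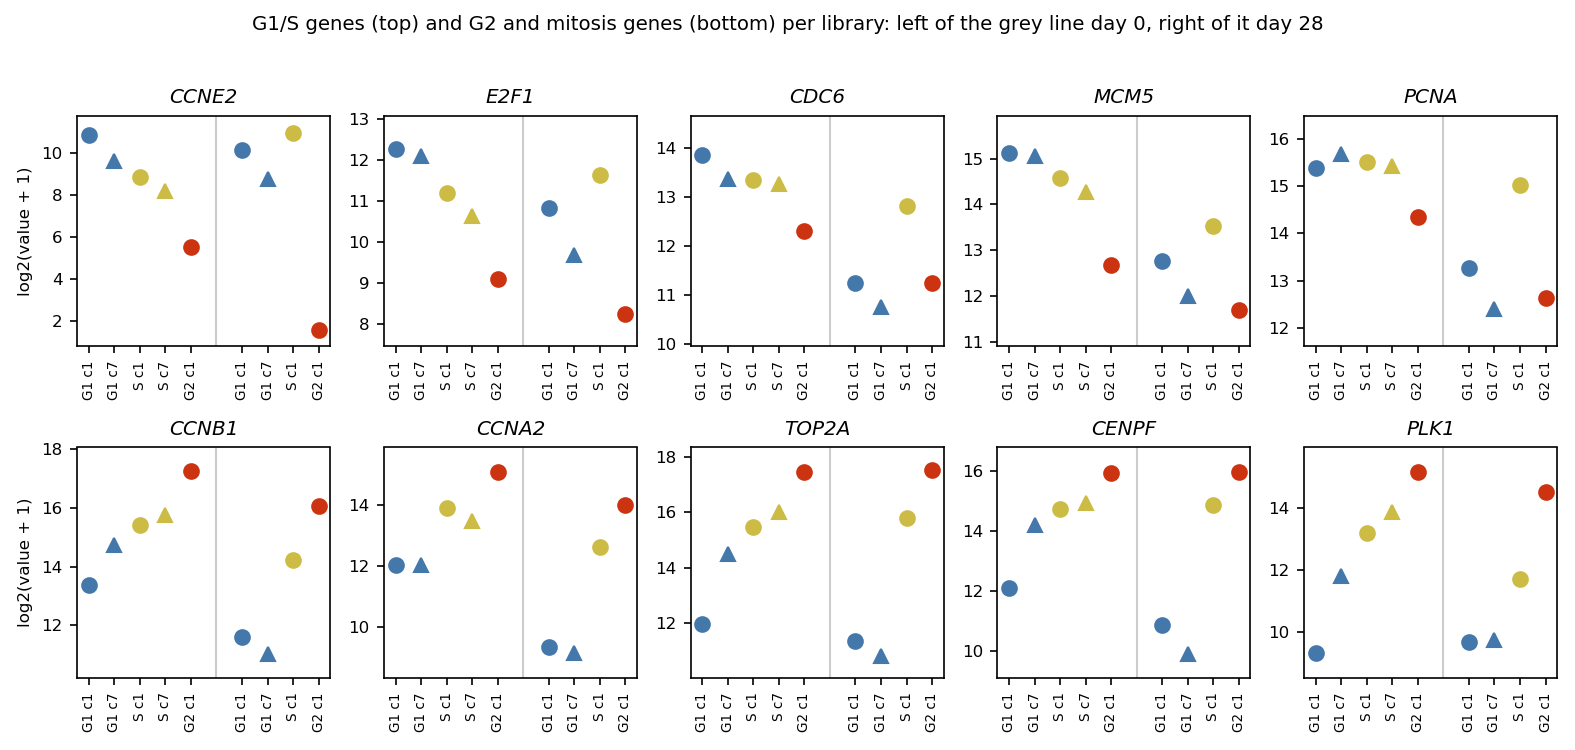
Level, log2(value + 1), of 5 G1/S genes (top) and 5 genes of G2 and mitosis (bottom) in each library, day 0 left and day 28 right of the grey line, with blue for G1, yellow for S, red for G2, circles for clone 1 and triangles for clone 7. At day 28 the top row peaks in S, with CCNE2 at 1 read in G2, and the bottom row peaks in G2.

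CDT1 and GMNN, the genes behind the sorting reporters, did not separate the groups. CDT1, a licensing factor, lay at 14.04 and 12.76 in G1, 13.14 in S and 13.90 in G2 (0.12 ± 0.90, limma adjusted p = 0.95), and GMNN, its inhibitor, at 13.13 and 12.59, 13.20 and 12.99 (0.24 ± 0.71). Reads of the reporter transcripts and of the endogenous genes cannot be told apart in these spans.

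Few genes that hold cells out of the cycle passed. Of 27 tested CDK inhibitors, pocket proteins and quiescence genes, 1 rose and 2 fell (median -0.51), beside 2.89% and 1.85% of all tested genes. YPEL3, a growth suppressor, was at 13.38 and 13.72 in G1, 11.51 in S and 10.53 in G2, a fall to 0.173 of the G1 level (-2.53 ± 0.35, limma adjusted p = 0.0108). CDKN2B, which encodes the CDK4 and CDK6 inhibitor p15, fell from 11.25 and 11.74 to 9.72 and 9.41 (-1.94 ± 0.39, adjusted p = 0.0387). CDKN2C, the related inhibitor p18, went the other way, from 6.47 and 5.58 to 8.72 in S and 10.39 in G2 (3.53 ± 0.66, adjusted p = 0.031). CDKN1A (p21) lay at 8.33 and 8.50 in G1, 8.35 in S and 7.79 in G2 (-0.34 ± 0.67), and CDKN1B (p27) differed by 1.17 ± 0.37 (adjusted p = 0.108). FOXO3, a transcription factor of quiescence, stood at -2.22 ± 0.78 (adjusted p = 0.133). Without the G1 library of clone 7, and also without the G2 library, 0 of the 27 passed.

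By the same rule the largest falls were those of KRT13, TSPAN1, PKD1L2 and BCAS1. KRT13, a keratin of stratified epithelium, was at 13.61 and 15.05 in G1, 10.57 in S and 9.18 in G2, a level 0.0456 of that in G1 (-4.46 ± 0.47, limma adjusted p = 0.00502). TSPAN1, a tetraspanin, fell from 13.63 and 15.02 to 10.42 and 10.14 (-4.04 ± 0.62, adjusted p = 0.016). PKD1L2, a polycystin family protein, fell from 15.18 and 14.46 to 11.14 and 10.98 (-3.76 ± 0.36, adjusted p = 0.0038). In each of these the cycling libraries lay more than 3 log2 units below the lower G1 library.

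BCAS1 was at 13.44 and 13.73 in G1 and at 9.96 in S and 9.81 in G2 (-3.70 ± 0.46, limma adjusted p = 0.00771). The remaining named genes that fell were AHNAK2 (-3.50), SDCBP2 (-3.30), the melanosome and granule transport protein MLPH (-3.19), PLAT, which encodes tissue plasminogen activator (-3.15), CEACAM19 (-2.96), FBXW10B (-2.90), the kallikrein protease KLK5 (-2.89), the surface antigen PSCA (-2.87), the secreted semaphorin SEMA3C (-2.74), KRT23 (-2.68) and the erythropoietin receptor EPOR (-2.68). In the plot of leading genes the S and G2 points of these 15 lie close together, EPOR, PLAT and KRT13 being the widest apart, and left of both G1 points. All 15 kept their direction in each alternative in which they were fitted, which their selection fixed for the fits with 1 library left out. Of the 15, 2 passed without the G1 library of clone 7, 4 without the G2 library, 10 in clone 1 alone and 2 with the olfactory density subtracted. The epithelial list as a whole held 0 calls among 16 genes (median -0.24), with KRT7 at -0.90 ± 0.52 and CDH1 (E-cadherin) at 0.77 ± 0.49.

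Few genes of growth and protein making passed the threshold, to be set beside 2.89% higher and 1.85% lower among all tested genes. Ribosome biogenesis genes rose in 2 of 32 (median 0.81, 31 of 32 above 0): BOP1, a factor of large subunit assembly, from 12.36 and 12.76 to 14.28 and 14.21 (1.69 ± 0.25, limma adjusted p = 0.0143), and NOP56, of the small nucleolar particle, from 14.02 and 14.12 to 15.96 and 15.51 (1.66 ± 0.29, adjusted p = 0.025). Of 21 heat shock chaperones 1 rose, CCT5 of the tubulin and actin folding complex (1.48 ± 0.25, adjusted p = 0.0236), with a list median of 0.73. With the clone as a block 8 of the 32, 4 of the 21 and 4 of the 11 tubulins rose. Of 11 tubulins 3 rose, TUBA1B (1.91 ± 0.39), TUBB4B (1.67 ± 0.36) and TUBB6 (1.10). Without the G1 library of clone 7, and also without the G2 library, 0 members of these 3 lists passed, and without the G1 library of clone 1 only 1 did, of ribosome biogenesis. The 48 cytosolic ribosomal protein genes (median 0.36) and the 41 nuclear respiratory chain genes (median 0.36) held 0 calls, and 1 and 3 with the clone as a block. Their medians were 0.07 and 0.23 without the G1 library of clone 1, and without that of clone 7 the second was 0.56. The 13 mitochondrially encoded mRNAs held 0 calls as well, with a median of 0.73, which was -0.02 without the G1 library of clone 7 and 1.49 without that of clone 1.

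The counts that follow stand beside 2.89% higher and 1.85% lower among all tested genes. Of 26 lysosome and autophagy genes 1 rose and 2 fell (list median -0.82). The median was -0.39 and 0 passed without the G1 library of clone 7. WIPI1, an early autophagosome protein, fell from 12.78 and 13.19 to 10.69 in S and 10.69 in G2 (-2.30 ± 0.32, limma adjusted p = 0.0116), CTSA, a lysosomal protease, fell by 1.29, and GLA, a lysosomal galactosidase, rose by 1.39. Of 26 interferon-stimulated genes IFIT2 (-1.91 ± 0.30) and RIGI (-1.37) fell, with a list median of -0.43. That median turned to 0.12 without the G1 library of clone 1 and was -1.27 without that of clone 7, and 0 passed in either case. In the unfolded protein response and ATF4 list of 33 genes TRIB3, a stress pseudokinase, rose (1.65 ± 0.36) and DNAJB9, a chaperone of the endoplasmic reticulum, fell (-2.84 ± 0.63). DNAJB9 had 41 and 88 reads in G1, 76 in S and 0 in G2, and its difference was 0.10 without the G2 library. TNC, a matrix protein, was the 1 mesenchymal gene of 16 that rose (2.15 ± 0.46), MAD2L2 the 1 of 12 translesion genes (1.80 ± 0.34) and EXO1 the 1 of 8 mismatch repair genes. None of these 3, nor TRIB3, passed without the G1 library of clone 7.

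The lists for p53 targets, ERK pathway targets, receptor tyrosine kinases, YAP and TEAD targets, immediate early genes, NF-kB, NRF2 targets, cholesterol synthesis, glycolysis, alveolar markers, MHC class I and APOBEC3 held 0 calls, with medians from -0.32 to 0.32. Some medians changed sign between the fit without the G1 library of clone 1 and that without clone 7. Cholesterol synthesis went from -0.26 to 0.47, MHC class I from -0.27 to 0.17 and NRF2 targets from -0.01 to 0.38. Those of ERK targets and immediate early genes changed sign too, and the other lists kept theirs between these fits. EGFR itself was at 15.19 and 14.96 in G1, 14.32 in S and 14.28 in G2 (-0.78 ± 0.42, limma adjusted p = 0.294). Its groups did not overlap, which was so in 56.3% of all tested genes. ERBB2, its partner receptor, was at 13.80 and 14.34, 12.80 and 13.11 (-1.12 ± 0.26, adjusted p = 0.0582). The ERK-driven ETV4, of the PEA3 family, differed by 1.37 ± 0.55 (adjusted p = 0.175) and APOBEC3B, a cytidine deaminase, by 1.48 ± 0.44 (adjusted p = 0.0934). A p that misses the threshold does not show equal levels.

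Taken alone, the S library differed from G1 in 113 genes (0.911%, limma adjusted p under 0.05), 90 higher (0.726%) and 23 lower (0.185%). The G2 library differed in 363 (2.93%), 222 higher (1.79%) and 141 lower (1.14%), and in 561 with the clone as a block. Without the G1 library of clone 7 these counts were 0 and 59. Spindle genes rose in 11 of 25 in S (median 3.74) and in 25 of 25 in G2 (median 4.81), and mitotic entry genes in 12 and in 18 of 23 (medians 2.93 and 4.75). Replication fork genes rose in 2 of 34 in S (median 1.51) and in 0 in G2 (median 0.63), and homologous recombination genes in 2 and in 0 of 28 (medians 1.87 and 1.07). GBP2, an interferon-induced GTPase, fell in S, to 10.03 against 12.94 and 13.17 in G1 (-3.03 ± 0.43, limma adjusted p = 0.0371). Its level in G2 was 11.22, and G2 against S did not pass (1.19 ± 0.49, adjusted p = 0.8). FUCA1, a lysosomal fucosidase, fell in S as well, to 7.22 against 10.16 and 10.28, with 9.37 in G2 (2.15 ± 0.50 against S, adjusted p = 0.413). Both comparisons share the 2 G1 libraries.

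Tested directly, G2 differed from S in 4 genes (0.0323%), all lower in G2 and all at 0 or 1 read there. CCNE2 is given above. LRRC46 gave 338 reads in S and 0 in G2, at least 120.6-fold lower taking 3 reads as the floor, ENSG00000285508 gave 141 and 0 (at least 50.3-fold lower), and FICD, an enzyme that modifies the chaperone BiP, gave 146 and 1, a ratio of 156.3 (95% counting interval 27.6 to 6214). With at least 10 reads required in each day 28 library 0 genes passed. In the main fit 765 (6.17%) had an unadjusted p under 0.05, and the voom-weighted fit of the main design called 17. Of the 359 higher genes 248 were higher in G2 than in S, and of the 229 lower genes 163 were lower in G2 than in S. Intervals and floors cover counting error only.

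The same contrast in untreated cells, S and G2 against G1 at day 0, takes its difference from none of the 4 day 28 libraries. Its p-values come from the same 9-library fit, whose spread includes day 28 G1. This contrast called 0 genes (0.0%, limma), with 615 (4.96%) at an unadjusted p under 0.05 and 38 called with voom weights. The day 0 values are therefore a description. The median difference was 2.22 for mitotic entry (3.84 at day 28), 2.24 for spindle genes (4.16) and 1.35 for the kinetochore (3.07). For replication the day 0 medians were -0.02 for the fork (1.07 at day 28), -0.09 for licensing and firing (1.11), 0.30 for nucleotide supply (1.06) and 0.19 for homologous recombination (1.44). RRM2, at 14.70 and 14.93 in day 0 G1, 15.64 and 15.27 in S and 15.14 in G2, differed by 0.48 at day 0 and by 2.84 at day 28. PCNA lay at 15.38 and 15.69 in day 0 G1, 15.51 and 15.43 in S and 14.34 in G2, and its level in day 28 S (15.03) was closer to these than to that in day 28 G1.

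**Figure D4:**
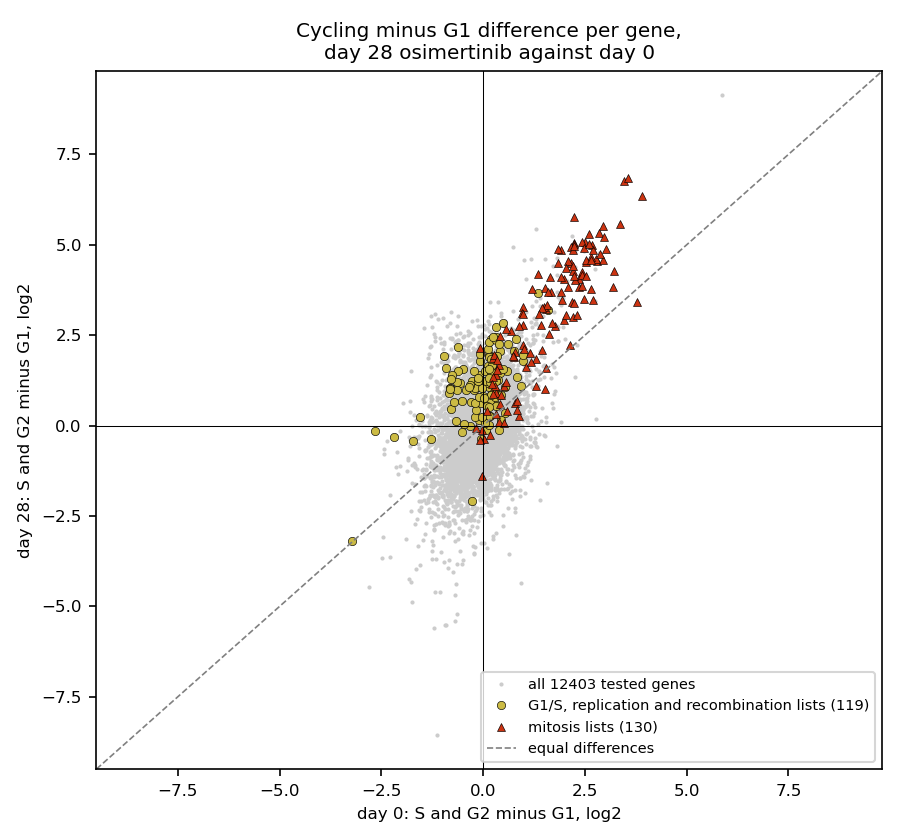
Difference of S and G2 from G1 (log2) at day 28 (vertical) against the same at day 0 (horizontal) for the 12403 tested genes (grey), 119 members of the G1/S, replication and recombination lists (yellow circles) and 130 of the mitosis lists (red triangles), with equal differences dashed. The red points lie along and above the dashed line, and the yellow points stand near 0 at day 0 and mostly above 0 at day 28.

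In the plot of day 28 against day 0 differences, 112 of the 119 replication genes (median of the change 1.21) and 114 of the 130 mitosis genes (median 1.69) had the larger difference at day 28, against 50.2% of all tested genes (median 0.00). Across genes, which are not independent replicates, Pearson's r of the day 28 and day 0 differences was 0.49 over all tested genes and 0.865 over the cell cycle lists. No single gene passed the test of that change, 0 of 12403 (0.0%, limma, lowest adjusted p = 0.257). An unadjusted p under 0.05 was found for 1271 (10.25%), and the voom-weighted fit also called 0. EXO1 had one of the larger changes at 2.79 ± 0.48 (adjusted p = 0.397), from -0.61 at day 0 to 2.18. TSPAN1 differed by -0.75 at day 0 and by -4.04 at day 28, and PKD1L2, whose G1 level was 9.78 and 10.41 at day 0 and 15.18 and 14.46 at day 28, by -0.95 and -3.76.

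Over the tested genes the day 28 S library correlated with the day 0 libraries at 0.821 to 0.851 (Pearson, levels), day 28 G2 at 0.769 to 0.825 and the 2 day 28 G1 libraries at 0.717 to 0.797. Within day 28, S correlated at 0.921 with G2, 0.898 with G1 clone 1 and 0.844 with G1 clone 7, and the G1 libraries at 0.941 with each other. These values describe 9 libraries and carry no test.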

How the data were processed

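Sorted G1, S and G2 fractions of PC9 cells, untreated or 28 days under osimertinib, gave 9 poly(A), strand-specific RNA-seq libraries, per the labels' protocols. Reads were aligned with HISAT2 2.1.0 to GRCh38 and DESeq2 was used, per the submitters' processing notes. The counter and the scaling are not given in the sources used here. The deposited log2 values of 80037 coding-transcript spans, introns included, are each a whole number of reads scaled by a constant of the library, and 0.9 reads stand where none was counted. The values were returned to the linear scale, a pseudocount of 1 was added, and the row with the highest mean was kept for each of 20435 genes.

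Genes with a mean log2 value of at least 7.0084 (10 reads in the shallowest library) were tested, 12403 in all. limma 3.58.1 in R 4.3.3 fitted 6 group means over the 9 libraries with a trended prior, leaving 3 residual degrees of freedom, and p-values were adjusted by Benjamini-Hochberg (threshold 0.05). S and G2 at day 28 have 1 library each and are assumed to vary like the other groups. Count models were not the main test, since the deposited unit is log2. Named genes are the 15 that differed most in each direction, provided that they passed the threshold, reached 3 in mean log2 CPM, had a named locus and moved 1 way over all pairs (6 each way for other comparisons), up to 5 members of each cell cycle list and up to 3 of other lists, and 13 set genes. Members of lists with few calls were added after their values were seen. The members and lists were chosen with earlier results of these data known.

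Clone numbers pair libraries: deviations from group means of same-clone libraries correlated at 0.651, 0.114 and 0.295 for the 3 pairs of groups with both clones. On simulated counts for this comparison (12403 genes, dispersion 0.05), 31% of 100 genes changed 2-fold and 98% of 100 changed 4-fold were recovered, with 7 false calls. These percentages hold for that dispersion, and recovery at a larger spread was not tested. In the deposited data, differences over 4-fold did not always pass. BLM did (2.45 ± 0.44, limma adjusted p = 0.0294). BRCA2 (2.40 ± 0.67, adjusted p = 0.0827) and FOXO3 (-2.22 ± 0.78, adjusted p = 0.133) did not. Alternatives covered scaling, filter, pseudocount, row choice, clone block, voom weights, background and each library left out. Figures were drawn with matplotlib 3.10.9.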

Additional observations from a re-analysis of the deposited data

How the results depend on the processing

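The 588 genes called for S and G2 against G1 became 904 with no filter, 279 in clone 1 alone, 909 with S and G2 as 1 class, 1142 with voom weights and 215 with background subtracted, and 46 to 748 with 1 library left out. For S against G1 (113) the counts were 171 with median-of-ratios scaling, 277 with no filter, 43 with the lowest row per gene, 244 with voom weights, 53 with background subtracted and 0 to 156 with 1 library left out. For G2 against G1 (363) they were 684 with no filter, 670 with voom weights, 109 with background subtracted and 59 to 415 with 1 library left out. With the clone as a replicate block G2 against G1 gave 561, and the block moved no other comparison's count by more than 1.5 times. G2 against S (4) gave 16 with no filter, 11 with a pseudocount of 0.1, 0 with a pseudocount of 5, 131 with the lowest row per gene, 17 with voom weights and 51 with background subtracted. It gave 0 without any 1 library other than day 28 S or G2, and cannot be fitted without either of those. The change from day 0 (0) gave 62 with background subtracted and 0 to 2 with 1 library left out. Chosen after seeing the data, quantile scaling gave 1245, 362, 684 and 0 for the first 4 comparisons, and at least 10 reads in each day 28 library gave 0 for G2 against S. Without the day 28 G2 library, which holds 0 or 1 read of them, CCNE2 came to 1.49, DNAJB9 to 0.1042, ENSG00000285508 to 0.4042 and LRRC46 to 0.876, and with each library left out these ranged from -7.866, -5.781, -6.369 and -7.156. For the counts the cause was not tested. Every count with background subtracted used a density that included 0.9 reads for each olfactory gene without a read. That density was 10.95 scaled reads per kb in day 0 G1 of clone 7 and 0.891 in that of clone 1, which also shifts the day 0 difference. The fit of clone 1 alone took its spread only from S against G2 on each day. Of the named genes' calls, 104 were lost without the day 28 G1 library of clone 7, 72 without G2 and 97 with background subtracted. With 1 S and 1 G2 library at day 28, changes of 2-fold were mostly below what this design could call.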

Other observations

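Several genes outside the lists, chosen after their values were seen, separated cycling from G1 cells at day 28. Of 3 tested HMGB genes, which encode DNA-bending chromatin proteins, all 3 rose (limma, Benjamini-Hochberg): HMGB2 from 13.12 and 12.16 in G1 to 15.85 in S and 16.49 in G2 (3.52 ± 0.45, adjusted p = 0.0087), HMGB3 by 2.59 ± 0.25 and HMGB1 by 1.78 ± 0.39. Both H2A.Z genes rose, H2AZ1 by 2.20 ± 0.23 and H2AZ2 by 2.18 ± 0.27, and so did H2AX, the histone phosphorylated at DNA breaks (3.31 ± 0.38). The B-type lamins of the nuclear envelope rose, LMNB1 from 10.77 and 9.72 to 13.22 and 13.59 (3.16 ± 0.38) and LMNB2 by 2.31 ± 0.29, while LMNA, for the A-type lamins, differed by -0.22 ± 0.47 (adjusted p = 0.808). Chromatin enzymes that rose were EZH2, which methylates H3K27 (2.13 ± 0.30), the histone methyltransferase SUV39H1 (2.74 ± 0.48) and the DNA methyltransferase DNMT3B (2.59 ± 0.48).

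Of 5 tested kallikrein protease genes 3 fell. KLK8 lay at 12.77 and 13.82 in G1, 10.12 in S and 11.72 in G2 (-2.37 ± 0.44, limma adjusted p = 0.0315), and KLK10 had 1 read in S and 56 in G2 (-4.69 ± 0.63, adjusted p = 0.0103). Of 14 tested keratins 2 fell, KRT13 and KRT23. C15orf48 had 0 reads in both cycling libraries, against levels of 8.15 and 12.07 in G1. AHRR, the repressor of the aryl hydrocarbon receptor, fell from 11.33 and 11.88 to 9.12 and 8.15 (-2.97 ± 0.49), and INPP4B, a phosphoinositide phosphatase, from 13.43 and 14.82 to 11.67 and 11.35 (-2.62 ± 0.43). Of the genes given here with a call and not in the leading lists, HMGB3 alone kept it without the day 28 G1 library of clone 7, and HMGB1, SUV39H1, DNMT3B, C15orf48, AHRR and INPP4B also lost it without the G2 library.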
